A study of Mus musculus with 12 samples.

Results

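Haemoglobin genes and 5 other genes of the red cell were followed through mouse LSK cells, a bone marrow fraction without lineage markers but with Sca1 and Kit that holds stem cells and early progenitors. The 9 genes were taken by name from 55471 genes in the count table: the adult alpha-globins Hba-a1 and Hba-a2, the adult beta-globins Hbb-bs and Hbb-bt, Slc4a1, Ermap, Trim10, Car1 and Car2. All 9 passed the filter on low counts. The cells had been taken from primary transplant recipients 6 weeks past tamoxifen, and gave 12 libraries in 6 groups of 2.

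In the dKO group both β-catenin and Hoxa9 were targeted, in HOXA9_KO Hoxa9, in Bcat_KO β-catenin (gene Ctnnb1), and in PRMT1_KO the arginine methyltransferase Prmt1. WT_PRMT1 was the wild type set beside PRMT1_KO, and WT the wild type of the other 3 knockouts. The titles call the targeted groups KO, whereas the genotype field calls them knockdown. All groups, wild types included, are listed as transplanted and tamoxifen-treated. The sources used here give neither the Cre line, the strain, the deleted exons nor the lineage antibodies, and do not state that the 2 libraries of a group are separate animals. The p-values may therefore measure technical spread only. Libraries are named by group and S tag, and pairs of values run in the order dKO S6 and S7, HOXA9_KO S4 and S5, Bcat_KO S3 and S4, PRMT1_KO S8 and S9, WT_PRMT1 S10 and S11, WT S1 and S2. Tag S4 occurs in both HOXA9_KO and Bcat_KO, so the tags do not form a single series. Whether the Bcat_KO libraries were made or sequenced apart from the others is not known here. In comparisons with Bcat_KO any such difference cannot be told apart from the genotype.

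As background, haemoglobin carries oxygen and is assembled from alpha- and beta-globin chains around haem, and its genes are switched on strongly only as a committed erythroid precursor matures. The transcription factors Gata1, Tal1 and Klf1 act earlier, and mature red cells and reticulocytes still hold globin mRNA after their nucleus is gone. In LSK cells low globin mRNA may thus stand for transcription in those cells or for RNA of other cells. In bulk samples fewer cells of a type and less RNA per cell cannot be told apart.

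The adult globin genes lie in pairs of near copies, so their promoters and transcripts are compared here. The following sequences, from RefSeq on GRCm38.p6, are the 120 bases before the start of 3 of them, and are shown because Hbb-bs and Hbb-bt parted in the data below. Capitals mark letters of 5 motifs on either strand: the box CACCC, which Klf1 is known to bind in beta-globin promoters, the box CCAAT, the TATA-like letters ATATAA, and 2 forms of the letters that GATA factors bind, AGATAA with an A in front and TGATAA with a T in front. Neighbouring marks can run together, as do an inverted and a forward CCAAT in Hbb-bt.
Hba-a1: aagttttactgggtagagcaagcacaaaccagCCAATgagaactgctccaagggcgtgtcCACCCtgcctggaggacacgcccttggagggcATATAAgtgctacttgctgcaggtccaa
Hbb-bs: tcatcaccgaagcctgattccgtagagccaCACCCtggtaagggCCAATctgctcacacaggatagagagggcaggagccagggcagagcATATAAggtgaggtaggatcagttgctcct
Hbb-bt: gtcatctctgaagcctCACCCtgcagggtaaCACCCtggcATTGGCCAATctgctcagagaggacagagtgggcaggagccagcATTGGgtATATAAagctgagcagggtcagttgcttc
These stretches are chr11:32283552-32283671 on the plus strand, chr7:103827929-103828048 on the minus strand and chr7:103813924-103814043 on the minus strand. In the 250 bases before the start, CACCC occurred on either strand in 52.0% of 32851 RefSeq promoters. The share was 33.8% for CCAAT and 9.10% for ATATAA. It was 9.99% for the motif AGATAA and 7.94% for the motif TGATAA. A match describes letters and shows no binding. Over 250 bases the promoters of Hba-a1 and Hba-a2 were 97.6% identical, and those of Hbb-bs and Hbb-bt 69.3%. Of the 50-base windows of the transcripts, 67.5% of those of Hba-a1 occurred in Hba-a2 and 86.9% of those of Hba-a2 in Hba-a1. The share was 65.8% for Hbb-bs in Hbb-bt and 58.3% for Hbb-bt in Hbb-bs. The split within each pair is uncertain, since the treatment of reads that match both copies is not stated in these sources.

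Library depth ran from 17569709 to 40553891 counts. Hoxa9 stood at 9.20 and 8.91 CPM (counts scaled to library size, with TMM factors) in dKO and at 12.2 and 8.35 CPM in HOXA9_KO, against 58.6 and 59.9 CPM in WT. Ctnnb1 was at 227 and 235 CPM in dKO and 275 and 267 CPM in Bcat_KO, against 314 and 342 CPM in WT. Prmt1 was at 118 and 111 CPM in PRMT1_KO, against 283 and 292 CPM in WT_PRMT1. Each of the 12 libraries held all 10 LSK markers of a list, at 1501 to 2212 CPM summed. Xist was at 0.757 CPM or less in dKO, HOXA9_KO and PRMT1_KO libraries, and at 11.2 and 21.9 CPM in Bcat_KO. In the WT_PRMT1 and WT libraries it was at 163 to 202 CPM. The Y-linked gene Ddx3y was at 60.5 to 93.4 CPM in the knockout groups and at 0.791 to 2.87 CPM in both wild types. Each knockout-to-wild-type comparison is thus also one of differing sex-linked expression. So is dKO against Bcat_KO, where of 5 sex-linked genes 1 was called higher and 1 lower. In the departure from additivity, described below, 4 of the 5 were called lower. WT S1 held all 10 neutrophil markers at more than 2-fold the level of WT S2.

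Adult globin mRNA was low in every library, at most 0.112% of all counts. The 4 genes summed to 92.8 and 344 CPM in dKO, 238 and 136 CPM in HOXA9_KO, 27.2 and 18.6 CPM in Bcat_KO, 28.7 and 24.1 CPM in PRMT1_KO, 596 and 527 CPM in WT_PRMT1, and 1109 and 259 CPM in WT. The Bcat_KO and PRMT1_KO libraries lay below all others. The WT libraries lay far apart, and so did the dKO libraries. Per length, Hbb-bs was the highest of the 9 genes in WT_PRMT1 (420.2 and 365 RPKM, CPM per kilobase of exon), and in WT S1 (803 RPKM), whereas Car2 was the highest in the other 9 libraries. The median over the 12 libraries was 187 RPKM for Car2, 133 for Hbb-bs, 54.4 for Hba-a1, 34.2 for Hbb-bt, 23.8 for Hba-a2, 9.45 for Car1, 1.81 for Slc4a1, 0.841 for Trim10 and 0.786 for Ermap. Many neighbours in that order changed places between libraries.

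**Figure D1:**
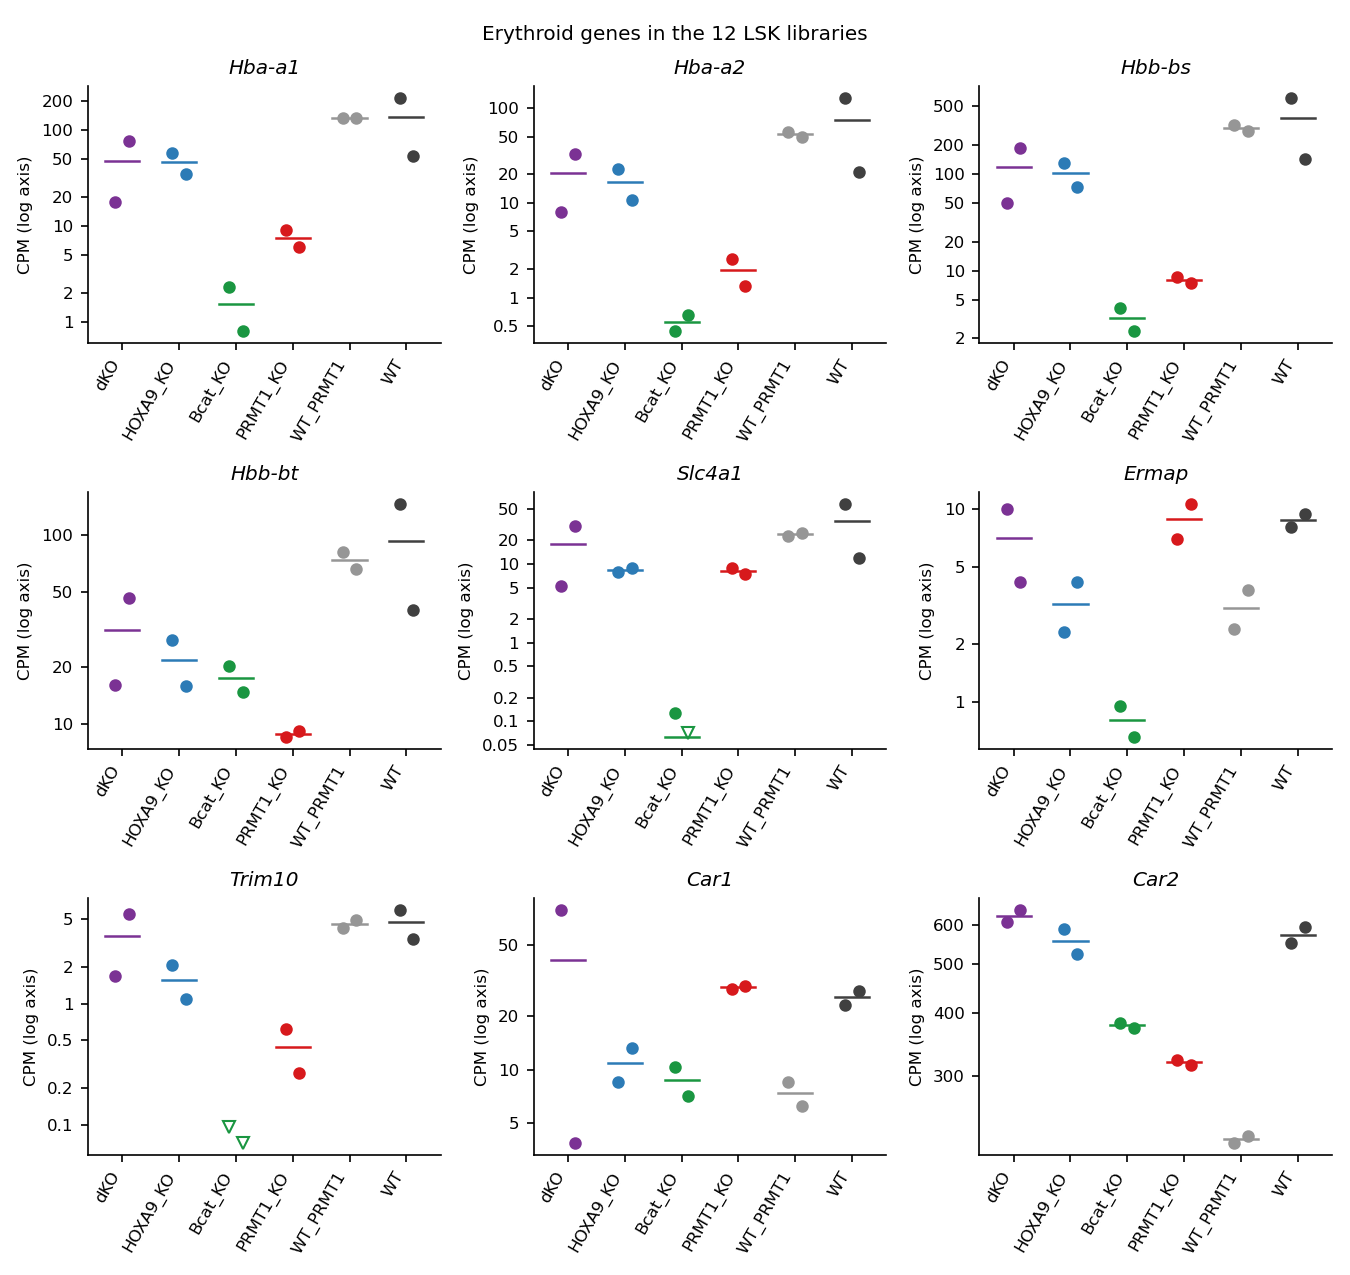
Level of each of the 9 genes in CPM (log axis, own scale per panel) by group. Points are libraries, in S-tag order from left to right, lines are group means (arithmetic), and open triangles mark libraries with 0 counts, drawn at the level 3 counts would give. All 4 globin panels have their lowest means in Bcat_KO and PRMT1_KO, and in the Hbb-bt panel the Bcat_KO points (20.3 and 14.8 CPM) lie close to those of HOXA9_KO (27.8 and 16.0 CPM).

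With β-catenin alone targeted, 7 of the 9 genes fell against WT and none rose: Hba-a1, Hba-a2, Hbb-bs, Slc4a1, Ermap, Trim10 and Car2. Hbb-bt and Car1 did not pass. Calls are adjusted p values under 0.05 from edgeR's quasi-likelihood test, adjusted by Benjamini-Hochberg over 17063 genes, and fold changes are log2 ± SE over 2 libraries per group. Of all genes tested 17.2% were called in this comparison, 9.76% as lower and 7.49% as higher. The members' median was -6.50, beside -0.04 over all genes.

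Hbb-bs (ENSMUSG00000052305, chromosome 7, 103826534 to 103828096, minus strand), a beta-globin, was at 50.7 and 188 CPM in dKO, 129.9 and 74.2 in HOXA9_KO, 4.16 and 2.38 CPM in Bcat_KO, 8.57 and 7.48 in PRMT1_KO, 323 and 280.1 in WT_PRMT1, and 616 and 145 in WT. Its Bcat_KO and PRMT1_KO libraries lay apart from every other library. It fell by 6.88 ± 1.10 in Bcat_KO against WT (adjusted p = 0.00984). Without Bcat_KO S4 the adjusted p was 0.0749, and the call was also lost without Bcat_KO S3 and in 2 other settings.

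Hba-a1 (ENSMUSG00000069919, chromosome 11, 32283511 to 32284465, plus strand), an alpha-globin, was at 17.9 and 76.8 CPM in dKO, 58.0 and 34.7 in HOXA9_KO, 2.28 and 0.800 CPM in Bcat_KO, 8.995 and 6.06 in PRMT1_KO, 135 and 132 in WT_PRMT1, and 218 and 53.8 in WT. The order of libraries was close to that of Hbb-bs. Hba-a1 fell by 6.50 ± 1.18 in Bcat_KO (adjusted p = 0.0155), called in 8 of 13 alternatives. That call was lost with limma-voom, with only the groups compared, and without Bcat_KO S3, Bcat_KO S4 or WT S1. The neighbour of Hba-a1, Hba-a2 (ENSMUSG00000069917, chromosome 11, 32296489 to 32297298, plus strand), ranged from 0.444 CPM in Bcat_KO S3 to 129 CPM in WT S1. It fell by 7.05 ± 1.34 in Bcat_KO (adjusted p = 0.0181), called in 9 of 13 alternatives. The Hba-a2 call was lost with limma-voom, with only the groups compared, and without Bcat_KO S3 or Bcat_KO S4.

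Hbb-bt (ENSMUSG00000073940, chromosome 7, 103812524 to 103813996, minus strand), the other adult beta-globin, was at 16.2 and 46.4 CPM in dKO, 27.8 and 16.0 in HOXA9_KO, 20.3 and 14.8 CPM in Bcat_KO, 8.57 and 9.22 in PRMT1_KO, 81.2 and 65.9 in WT_PRMT1, and 146 and 40.0 in WT. In Bcat_KO it overlapped with dKO and HOXA9_KO, unlike the other globins. The change in Bcat_KO against WT was -2.40 ± 0.75 (adjusted p = 0.0813), and DESeq2 and edgeR without robust shrinkage called it.

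The proportion of the beta-globins therefore differed between groups. Hbb-bt made up 24.2 and 19.8% of the adult beta-globin counts in dKO, 17.6 and 17.7% in HOXA9_KO, 83.0 and 86.2% in the Bcat_KO pair, 50 and 55.2% in PRMT1_KO, 20.1 and 19.0% in WT_PRMT1, and 19.1 and 21.7% in WT. The Wilson 95% intervals were 80.2 to 85.5% and 83.5 to 88.5% in Bcat_KO, 44.2 to 55.8% and 50.1 to 60.2% in PRMT1_KO, and between 16.1 and 26.3% in the other 8 libraries. The Bcat_KO and PRMT1_KO libraries thus stood apart from each other and from the rest. Intervals cover counting error only, and are too narrow because both mates of a pair appear to have been counted. The shares were set out after the values were seen and are a description, with no test. They rest on 770 and 730 beta-globin counts in Bcat_KO and 280 and 375 in PRMT1_KO.

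**Figure D2:**
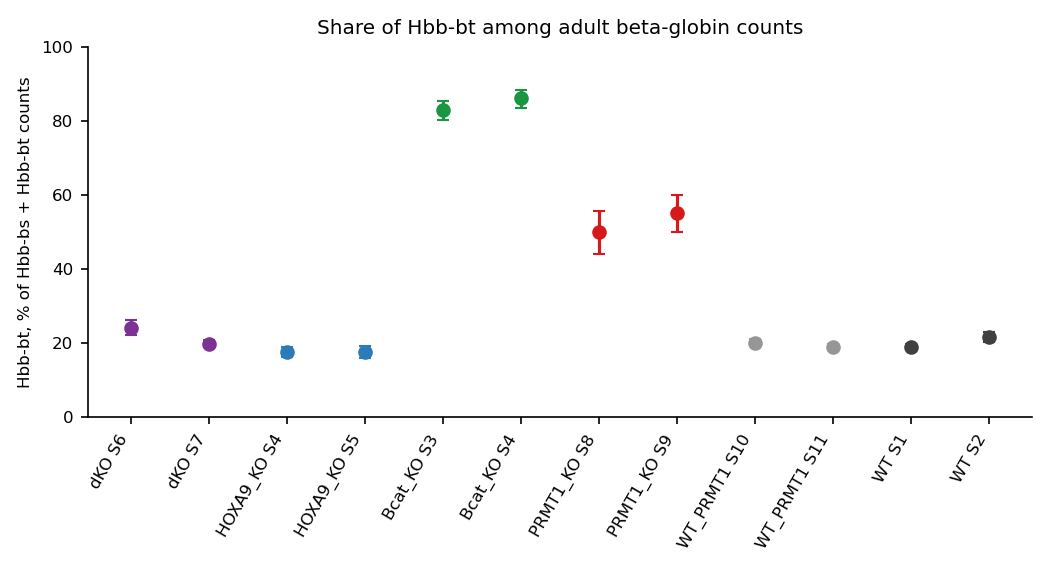
Hbb-bt as a percentage of Hbb-bs plus Hbb-bt counts in each library, with Wilson 95% intervals (counting error only). The points are at 83.0 and 86.2% in Bcat_KO and at 50 and 55.2% in PRMT1_KO, and at 17.6 to 24.2% in the other 8 libraries.

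The alpha-globins made up 10.05 and 7.83% of adult globin counts in Bcat_KO, 40.3 and 30.7% in PRMT1_KO, and 27.9 to 34.4% in the other 8 libraries. The Bcat_KO share was the low one, as Hbb-bt held most of the globin counts there. Embryonic and fetal globin genes contributed little in any group. None of the 8 listed passed the filter, and the highest, Hbq1b, reached 32 counts over all 12 libraries. This gene was named after its values were seen.

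Slc4a1 (ENSMUSG00000006574, chromosome 11, 102348824 to 102366203, minus strand) encodes band 3, the chloride-bicarbonate exchanger that anchors the red cell skeleton. It was at 5.26 and 30.3 CPM in dKO, 7.85 and 8.77 in HOXA9_KO, 0.127 and 0 CPM in Bcat_KO, 8.93 and 7.39 in PRMT1_KO, 22.6 and 24.9 in WT_PRMT1, and 57.9 and 11.8 in WT. The Bcat_KO libraries, with 4 and 0 counts, lay far below all others, and the dKO libraries spanned the values of HOXA9_KO, PRMT1_KO and WT_PRMT1. Slc4a1 fell by 9.17 ± 1.65 in Bcat_KO (adjusted p = 0.0147), called in 9 of 13 alternatives, and at so few counts the fitted size is imprecise. The call was lost with limma-voom, with only the groups compared, and without Bcat_KO S3 or Bcat_KO S4. In PRMT1_KO the change was -1.54 ± 1.02 (adjusted p = 0.320), although the fit of only these 2 groups called it (-1.56, adjusted p = 9.34e-06). Per 1000 adult globin counts there were 4.67 and 0 Slc4a1 counts in Bcat_KO, 311 and 307 in PRMT1_KO, and 33.0 to 88.0 in the other 8 libraries.

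Trim10 (ENSMUSG00000073400, chromosome 17, 36869574 to 36877833, plus strand), a tripartite-motif protein known from maturing mouse erythroid cells, was at 1.70 and 5.46 CPM in dKO, 2.07 and 1.08 in HOXA9_KO, 0 in both Bcat_KO libraries, 0.612 and 0.267 in PRMT1_KO, 4.18 and 4.85 in WT_PRMT1, and 5.96 and 3.42 in WT. With 3 counts taken as the limit, a count of 0 allows up to 0.0952 CPM in Bcat_KO S3 and 0.0706 CPM in Bcat_KO S4. These limits may be too low, since both mates of a pair appear to be counted. Trim10 was at least 116-fold lower in Bcat_KO than in WT, taken against 3 counts over the group (adjusted p = 2.85e-05). This call held in every alternative in which the gene was tested.

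Ermap (ENSMUSG00000028644, chromosome 4, 119175457 to 119190011, minus strand) encodes an erythroid membrane protein of the immunoglobulin superfamily. It was at 9.98 and 4.17 CPM in dKO, 2.29 and 4.16 in HOXA9_KO, 0.952 and 0.659 CPM in Bcat_KO, 6.98 and 10.6 in PRMT1_KO, 2.37 and 3.77 in WT_PRMT1, and 7.99 and 9.43 in WT. Bcat_KO lay below every other library. Ermap fell by 3.44 ± 0.47 in Bcat_KO (adjusted p = 0.000154, called in all 13 alternatives). It differed from the globins in PRMT1_KO, where it rose (below).

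The carbonic anhydrases, enzymes that interconvert carbon dioxide and bicarbonate, followed neither each other nor the globins. Car2 (ENSMUSG00000027562, chromosome 3, 14886273 to 14900770, plus strand) was at 608 and 643 CPM in dKO, 588 and 525 in HOXA9_KO, 383 and 373 CPM in Bcat_KO, 323 and 316 in PRMT1_KO, 220.2 and 228 in WT_PRMT1, and 553 and 593 in WT. Its libraries agreed closely within every group, and its whole range was 2.92-fold, against 259-fold for Hbb-bs and 272-fold for Hba-a1. Car2 fell by 0.60 ± 0.07 in Bcat_KO against WT (adjusted p = 5.93e-05).

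Car1 (ENSMUSG00000027556, chromosome 3, 14766216 to 14808368, minus strand) was at 79.4 and 3.87 CPM in dKO, 8.51 and 13.2 in HOXA9_KO, 10.4 and 7.11 CPM in Bcat_KO, 28.5 and 29.7 in PRMT1_KO, 8.48 and 6.29 in WT_PRMT1, and 23.2 and 27.8 in WT. The dKO libraries held both the highest and the lowest value of the series, 20.5-fold apart. No comparison called Car1 in the fit of all libraries. The fit of only the groups compared called it in all 4 comparisons without dKO. It was at -1.25 in HOXA9_KO against WT (adjusted p = 0.00496), -1.55 in Bcat_KO against WT (0.00288), 1.97 in PRMT1_KO against WT_PRMT1 (1.04e-06) and -1.80 in WT_PRMT1 against WT (1.40e-05). In dKO against WT the change was 0.71 ± 1.11 (adjusted p = 0.759). Leaving out dKO S6 made it -2.71 (adjusted p = 3.09e-06), and leaving out dKO S7 made it 1.63 (adjusted p = 0.000166), so the single dKO library kept decides the direction. The same held for dKO against HOXA9_KO, at -1.49 without dKO S6 (adjusted p = 0.00935) and 2.87 without dKO S7 (1.99e-06), and for dKO against Bcat_KO, at -1.16 (0.0108) and 3.18 (5.95e-08).

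In PRMT1_KO the globins and Trim10 fell, whereas Ermap and Car2 rose. Of the 9 genes 5 fell and 2 rose against WT_PRMT1, where 32.5% of all genes were called, 16% as lower and 16.6% as higher. Hbb-bs fell by 5.23 ± 1.02 (adjusted p = 0.00891), Hba-a2 by 4.79 ± 1.21 (0.0251), Hba-a1 by 4.16 ± 1.04 (0.0242), Hbb-bt by 3.05 ± 0.79 (0.0283) and Trim10 by 3.39 ± 0.68 (0.000949). Ermap rose by 1.51 ± 0.43 (adjusted p = 0.0118) and Car2 by 0.51 ± 0.07 (4.35e-05), and Car1 was at 1.98 ± 1.17 (0.265, but called with only the 2 groups fitted, as above). Ermap and Car2 were themselves lower in WT_PRMT1 than in WT. The mean of Ermap was 8.79 CPM in PRMT1_KO, 3.07 in WT_PRMT1 and 8.71 in WT. For Car2 the means were 319, 224 and 573 CPM, so PRMT1_KO did not exceed WT for Car2.

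These calls differed in how far they rested on single libraries. Those of Hba-a1, Hba-a2 and Hbb-bt were lost whichever of the 4 libraries was left out, with adjusted p reaching 0.156 (without PRMT1_KO S9), 0.164 (without PRMT1_KO S9) and 0.156 (without PRMT1_KO S8). Hbb-bs lost its call without either PRMT1_KO library (up to 0.0788), and Ermap without PRMT1_KO S9 (0.121) or WT_PRMT1 S10. Trim10 and Car2 kept theirs in every alternative that tested them. In all these fits a lone library was assumed to vary like the other groups.

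With Hoxa9 targeted, alone or with β-catenin, no member was called. In HOXA9_KO against WT 6.73% of all genes were called, 4.44% as higher and 2.3% as lower, and 0 of 9 members. The 9 changes were all negative, with a median of -1.58 beside 0.00 over all genes. An unadjusted p under 0.05 was reached by 3 members, and by 3274 of all 17063 genes. DESeq2 called 2 members and limma-voom 0, and the shares of all genes called by these 2 methods are not given here. The nearest to the threshold was Ermap at -1.43 ± 0.43 (adjusted p = 0.0572), which other settings called. In dKO against WT 17.7% of all genes were called, 9.15% as higher and 8.53% as lower, and again 0 members. None was under an unadjusted p of 0.05, beside 4930 of all 17063 genes, and none was called by DESeq2 or limma-voom. The globin changes there were -1.52 to -1.88 for Hba-a1 and Hba-a2, -1.67 ± 0.85 for Hbb-bs (adjusted p = 0.270) and -1.57 ± 0.73 for Hbb-bt (0.231). Without WT S1 the change of Hbb-bs was -0.27 in dKO and -0.51 in HOXA9_KO.

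Most members stood higher in dKO than in Bcat_KO. In dKO against Bcat_KO 7 of 9 rose, where 28.1% of all genes were called, 16.1% as higher and 12% as lower. Hba-a1 rose by 4.99 ± 1.13 (adjusted p = 0.0206), Hba-a2 by 5.18 ± 1.27 (0.0275), Hbb-bs by 5.20 ± 1.03 (0.0127) and Slc4a1 by 8.20 ± 1.63 (0.0128). Ermap rose by 3.14 ± 0.46 (adjusted p = 0.000116) and Car2 by 0.73 ± 0.07 (3.90e-06). Trim10 was at least 88.3-fold higher in dKO than in Bcat_KO (1.70e-05). The globin and Slc4a1 calls were lost without Bcat_KO S3 or Bcat_KO S4, and those of Hba-a1 and Hba-a2 also without dKO S7. Hbb-bt was at 0.84 ± 0.73 (adjusted p = 0.449). Against HOXA9_KO, where 1.75% of all genes were called (0.416% as higher, 1.33% as lower), dKO had 0 members called, and 0 by DESeq2 or limma-voom. An unadjusted p under 0.05 was reached by 2 members (Ermap and Car2), and by 2119 of all 17063 genes.

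**Figure D3:**
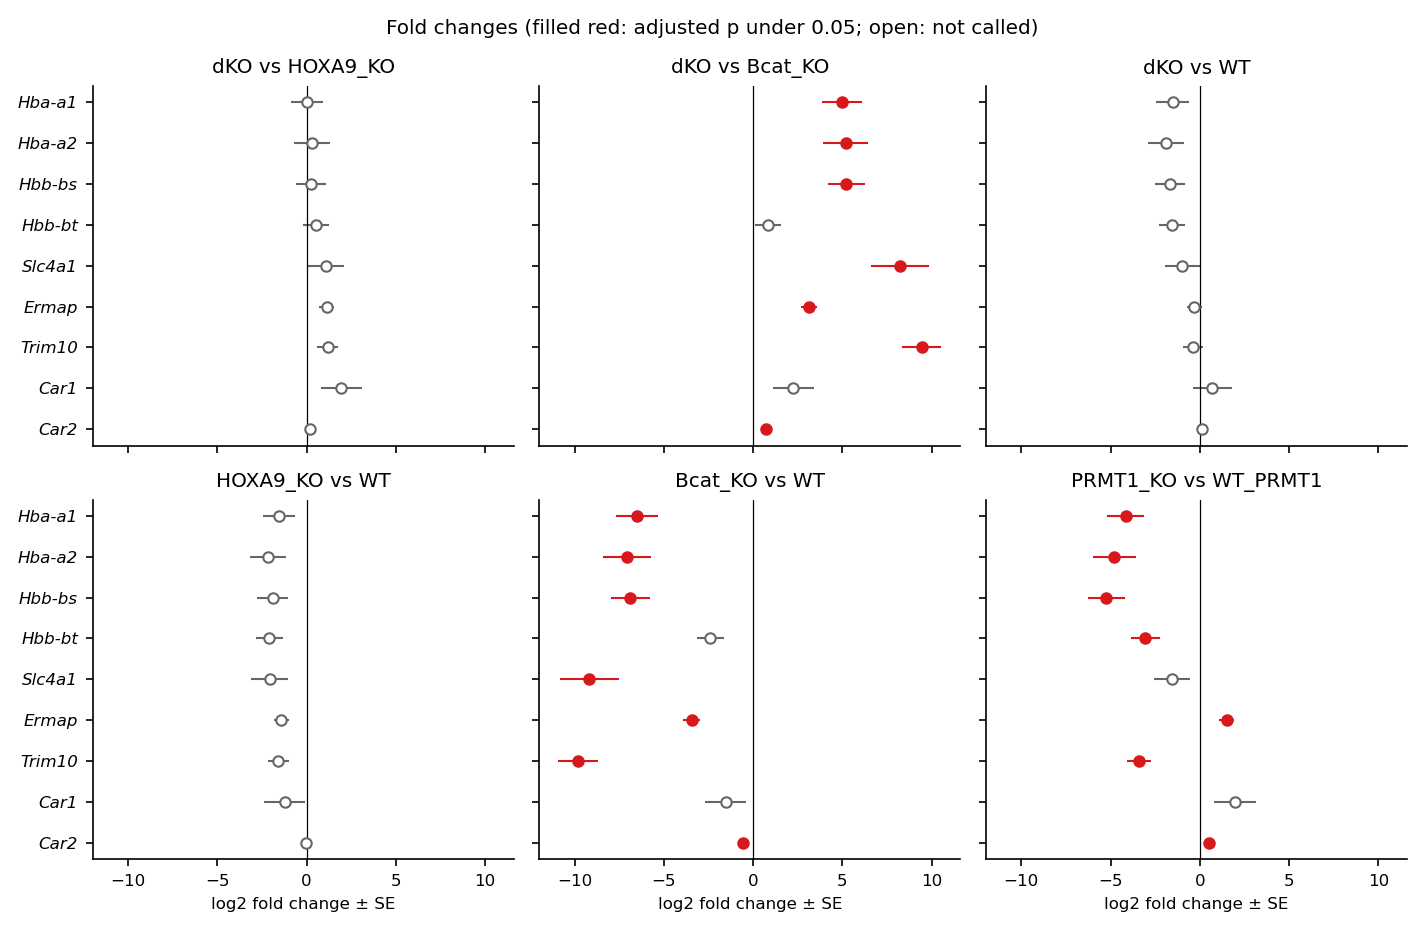
Log2 fold change ± SE (2 libraries per group, edgeR) of the 9 genes in 6 comparisons, filled where the adjusted p was under 0.05. In Bcat_KO against WT 7 genes are called, all lower (9.76% of all genes lower), and in dKO against Bcat_KO 7, all higher (16.1% higher). In PRMT1_KO against WT_PRMT1 5 are lower and 2 higher (16% and 16.6% of all genes). Trim10 and Slc4a1 rest on 0 to 4 counts in Bcat_KO, so their plotted sizes there are imprecise.

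A further contrast is the departure from additivity, the dKO change minus those of the single knockouts, which also takes in HOXA9_KO and WT. It was above 0 for all 9 members and called for 7, Hbb-bt and Car1 excepted, where 8.43% of all genes were called, 4.54% as higher and 3.9% as lower. Its size was 7.10 ± 1.34 for Hbb-bs (adjusted p = 0.0292), 4.56 ± 0.63 for Ermap (0.000390) and 0.77 ± 0.11 for Car2 (0.000354). The comparisons share the WT and Bcat_KO libraries, so they are not independent of one another.

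The 2 wild-type groups were not interchangeable for 2 members. Car2 was lower in WT_PRMT1 than in WT by a log2 change of -1.35 ± 0.08 (adjusted p = 6.83e-09), in a comparison that called 7.58% of all genes, 3.87% as lower and 3.71% as higher. Ermap was lower too, at -1.50 ± 0.43 (adjusted p = 0.0426), but each of the 4 leave-1-out fits lost that call (adjusted p up to 0.301, without WT_PRMT1 S10). The other 7 were not called. Slc4a1, at -0.55 ± 0.98, and Hbb-bs, at -0.34 ± 0.83, turned positive without WT S1 (1.00 and 1.04).

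The members split into sets that moved from library to library in different ways. The SD over 12 libraries of the log2 difference between 2 genes was used as the measure of likeness, a small SD meaning a near-constant ratio. Of 11142 protein-coding genes with a mean of at least 2 CPM, the members left out, Alas2 was nearest to the summed adult globins, with an SD of 0.55 against a median of 2.07. Alas2 encodes the erythroid form of the enzyme that starts haem synthesis. It was at 2.59 and 12.8 CPM in dKO, 10.9 and 6.44 in HOXA9_KO, 0.571 and 1.15 CPM in Bcat_KO, 2.57 and 0.668 in PRMT1_KO, 34.3 and 29.1 in WT_PRMT1, and 51.5 and 14.8 in WT. Its ratio to globin, 21.03 to 89.6 counts per 1000 adult globin counts, moved far less than either level. The next in rank were Cplx2, Hspb1, Sema3g and Colq, at SDs of 1.14 to 1.17.

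Trim10 (SD 0.89 to summed globin) followed the globins among the members, and Slc4a1 (1.78), Car2 (2.05), Ermap (2.10) and Car1 (2.62) did not follow as closely. To single genes the SD of Slc4a1 was 1.17 for Hba-a1, 1.47 for Hba-a2, 1.55 for Hbb-bs, 2.38 for Hbb-bt and 1.17 for Trim10. The genes most like Slc4a1 were the predicted genes Gm10722, Gm10718, Gm10717, Gm10801 and Gm10800 (SD 0.90 to 1.17, median of all genes 2.84). Car2 was matched most closely by G430095P16Rik, Cngb1, Coq10b, H2-Q7 and Tiparp (0.13 to 0.20, median 0.64). Nearest to Car1 were Atp1b2, Hpn, Add2, Klf1 and Pklr (0.47 to 0.80, median 1.28). Klf1 is an erythroid transcription factor, Pklr the red cell pyruvate kinase and Add2 a skeleton protein. All these measures share library scaling and depth, and carry no test.

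Within dKO the sets went opposite ways. Car1 was at 79.4 CPM in S6 and 3.87 CPM in S7, and Ermap at 9.98 and 4.17 CPM, whereas summed adult globin was 92.8 CPM in S6 and 344 CPM in S7. Of 15 early erythroid genes with at least 20 counts in the pair, 5 were more than 2-fold higher in S6 and none in S7, beside 6.25% and 4.28% of all 14793 genes with that many counts. The counts were 4 and 2 of 19 membrane and skeleton genes, 1 and 1 of 19 haem and iron genes, and 1 and 1 of 17 late maturation genes. They were Gata1 (45.9 and 20.3 CPM in S6 and S7), Klf1 (8.97 and 4.09), the lipid transporter gene Mfsd2b (96.2 and 29.3), the sphingosine kinase gene Sphk1 (6.03 and 1.90) and Samd14 (30.9 and 14.7), named after their values were seen. In WT S1 had more than 2-fold the level of S2 for 5 of the 9 members, 6 of 19 membrane and skeleton genes and 1 of 15 early erythroid genes, beside 4.95% of all genes.

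**Figure D4:**
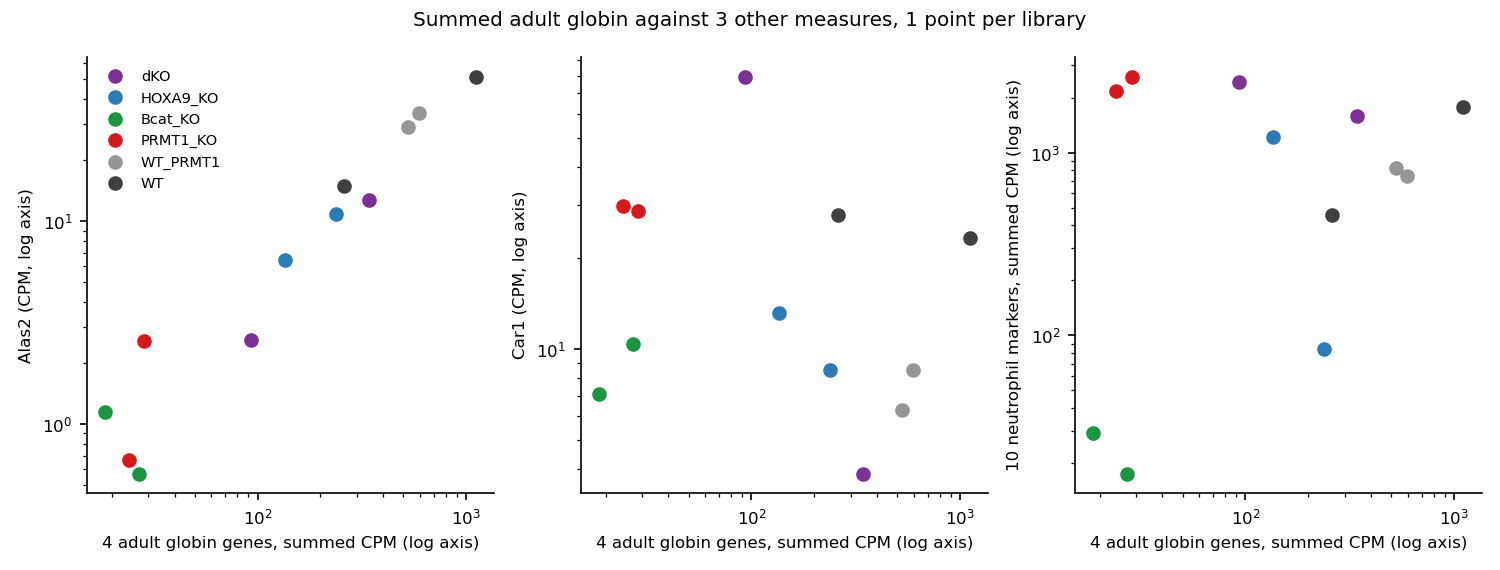
Summed CPM of the 4 adult globin genes (horizontal, log axis) against Alas2, Car1 and the sum of 10 neutrophil markers (vertical, log axes), 1 point per library. Alas2 lies along a diagonal, whereas Car1 is highest in a dKO library with 92.8 CPM of globin, and PRMT1_KO joins low globin (28.7 and 24.1 CPM) with high neutrophil markers (2598 and 2163 CPM).

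Markers of other blood cells moved with some of these results. The 10 neutrophil markers summed to 2439 and 1581 CPM in dKO, 84.2 and 1209.8 in HOXA9_KO, 17.5 and 29.2 CPM in Bcat_KO, 2598 and 2163 in PRMT1_KO, 745 and 826 in WT_PRMT1, and 1781 and 455 in WT. Ltf, Mmp9 and Retnlg were at 0 in both Bcat_KO libraries, and no neutrophil marker was at 0 elsewhere. The low globin of Bcat_KO thus came with low neutrophil markers, and that of PRMT1_KO with sums among the highest. The part of such cells in the Bcat_KO result was not tested. The 11 macrophage markers summed to 31.3 to 72.5 CPM over all groups, with 4 at 0 in each Bcat_KO library. The 9 B-cell markers summed to 67.4 to 149 CPM in dKO, 203 to 415 in HOXA9_KO, 72.5 to 75.1 in Bcat_KO, 84.9 to 85.3 in PRMT1_KO, 1012 to 1043 in WT_PRMT1 and 772 to 955 in WT. The B-cell sums were highest in the WT_PRMT1 and WT libraries. Globin was so only in part, at 259 CPM in WT S2 against 344 CPM in dKO S7, and dKO S7 had the lowest B-cell sum. The 11 megakaryocyte and platelet markers went another way, at 532 to 863 CPM in dKO, 385 to 566 in HOXA9_KO, 219 to 227 in Bcat_KO, 759 to 802 in PRMT1_KO, 64.3 to 69.6 in WT_PRMT1 and 138 to 159.6 in WT. The 10 T and NK cell markers summed to 69.8 to 137 CPM over all groups, with 4 and 5 at 0 in the Bcat_KO libraries.

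Reads from genes that blood cells do not use also differed. The 1972 olfactory and vomeronasal receptor genes summed to 86.2 to 91.1 CPM in dKO, 63.2 to 84.4 in HOXA9_KO, 11.2 to 15.1 in Bcat_KO, 80.0 to 87.1 in PRMT1_KO, 143 to 146 in WT_PRMT1 and 136 to 181 in WT. Of these genes 1946 and 1925 were at 0 counts in Bcat_KO, the deepest libraries, against 1123 to 1554 in the other libraries. What set Bcat_KO apart there was not tested. Over their summed length the receptor genes were at most at 0.0301 RPKM in any library. Trim10, at 0.119 to 2.65 RPKM wherever it was counted, and Ermap, at 0.124 to 2.00 RPKM, stood above it in each of those libraries. Slc4a1 was at 0.0259 and 0 RPKM in Bcat_KO S3 and S4, where the receptor genes were at 0.00252 and 0.00187 RPKM. The value in S3 is thus above the receptor level of its own library, but rests on 4 counts.

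Genes that act earlier in the erythroid path were counted in the same comparisons. In PRMT1_KO 11 of 15 tested early erythroid genes rose and none fell, where 16.6% of all genes rose and 16% fell, and the list's median was 0.71, beside -0.03 over all genes. Gata1, picked out after its values were seen, was at 55.2 and 54.3 CPM in PRMT1_KO, against 4.69 and 5.30 CPM in WT_PRMT1. Those with the smallest p were Zfpm1, the Gata1 partner FOG1, at 0.77 ± 0.08 (adjusted p = 1.14e-06), Samd14, at 2.77 ± 0.28 (2.59e-06), and the erythropoietin receptor Epor, at 2.51 ± 0.35 (2.40e-05). WT_PRMT1 was itself low for this list against WT, with 7 of 15 called lower, none higher and a median of -0.72. Of all genes 3.87% were lower and 3.71% higher there. The 16 listed genes summed to 1307 to 1318 CPM in PRMT1_KO, 839 to 862 in WT_PRMT1 and 1297 to 1337 in WT. Gata1 was at 14.8 and 18.1 CPM in WT. In dKO 5 of 15 rose and none fell, where 9.15% of all genes rose and 8.53% fell, led by Zfpm1 (1.04 ± 0.08, 1.58e-07), Tal1 (1.01 ± 0.09, 1.01e-06) and Gfi1b, a repressor of erythroid and megakaryocyte cells (1.24 ± 0.17, 8.09e-05). HOXA9_KO had 3 that rose, the same as those named for dKO, by 0.88 ± 0.08, 0.76 ± 0.09 and 1.13 ± 0.17, where 4.44% of all genes rose. Bcat_KO had 1 higher, Nfe2 (0.44 ± 0.10, adjusted p = 0.00670), and 2 lower, Rhd (-2.47 ± 0.49, 0.00290) and Blvrb (-0.59 ± 0.19, 0.0378), shares near those of all genes (7.49% higher, 9.76% lower). The medians of the list were 0.35 in dKO, 0.09 in HOXA9_KO and 0.08 in Bcat_KO.

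Of the membrane and skeleton genes of the red cell, 6 of 19 fell and 2 rose in Bcat_KO, where 9.76% of all genes fell and 7.49% rose. The median of the list was 1.08 in PRMT1_KO, 0.03 in dKO, -0.14 in HOXA9_KO and -1.43 in Bcat_KO, beside -0.03, 0.01, 0.00 and -0.04 over all genes. The channel-like protein gene Rhag fell by 2.16 ± 0.34 (adjusted p = 0.000392), and Tspo2, with 0 counts in Bcat_KO, was at least 26.1-fold lower than in WT (0.000861). In PRMT1_KO 9 of 19 rose and 1 fell, where 16.6% of all genes rose and 16% fell. Those that rose include Cd47, which restrains uptake by phagocytes (0.84 ± 0.08, 5.53e-07), the skeleton protein gene Epb41 (1.08 ± 0.11, 6.85e-07) and Rhag (2.67 ± 0.33, 6.32e-06). In dKO 5 rose and none fell, where 9.15% of all genes rose, including Epb41 (0.73 ± 0.11, 0.000112) and the blood group gene Bcam (1.05 ± 0.21, 0.00237). In HOXA9_KO, where 4.44% of all genes rose and 2.3% fell, 2 rose (Epb41 and Bcam) and 1 fell, the spectrin gene Sptb (-2.33 ± 0.56, 0.0342).

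Of 19 haem and iron genes tested, 7 rose and 2 fell in PRMT1_KO, 3 rose and 3 fell in dKO, 1 rose and 2 fell in HOXA9_KO, and 2 rose and 4 fell in Bcat_KO. Of all genes, 16.6% rose and 16% fell in PRMT1_KO, 9.15% and 8.53% in dKO, 4.44% and 2.3% in HOXA9_KO, and 7.49% and 9.76% in Bcat_KO, and the list's medians were -0.15, -0.03, -0.16 and -0.13 in that order. Only the 7 that rose in PRMT1_KO and the 4 that fell in Bcat_KO exceed what those shares would give by more than 2 genes. The transferrin receptor gene Tfr2 rose in all 4, by 1.09 ± 0.10 in PRMT1_KO (adjusted p = 2.51e-07), 0.95 ± 0.10 in dKO (3.48e-06), 0.78 ± 0.10 in HOXA9_KO (7.18e-05) and 0.61 ± 0.10 in Bcat_KO (0.000495). Isca1, of the iron-sulphur cluster machinery, rose in PRMT1_KO (1.31 ± 0.12, 3.95e-07), dKO (0.91 ± 0.12, 4.66e-05) and Bcat_KO (0.81 ± 0.12, 0.000271).

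Of 18 late maturation genes tested, 6 rose and 4 fell in PRMT1_KO, 2 rose and 2 fell in dKO, 1 rose in HOXA9_KO and 2 rose and 4 fell in Bcat_KO. Set against the same shares of all genes, the counts for dKO and HOXA9_KO are near them, and the medians of the list were 0.08 in PRMT1_KO, 0.12 in dKO, 0.09 in HOXA9_KO and -0.15 in Bcat_KO. The ubiquitin ligase gene Mkrn1 rose by 1.35 ± 0.09 in PRMT1_KO (adjusted p = 6.27e-09) and fell by 0.54 ± 0.09 in Bcat_KO (0.000561). Bnip3l, which clears mitochondria from reticulocytes, rose by 0.46 ± 0.09 in dKO (0.00102) and by 0.37 ± 0.09 in HOXA9_KO (0.0121). Among 8 tested carbonic anhydrases other than Car1 and Car2, Car9 (-1.75 ± 0.34, 0.000654) and Car13 (-1.01 ± 0.27, 0.00852) fell and Car3 (0.74 ± 0.26, 0.0363) rose in PRMT1_KO. In Bcat_KO Car8, with 0 counts there, was at least 10.6-fold lower than in WT (0.0326).

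**Figure D5:**
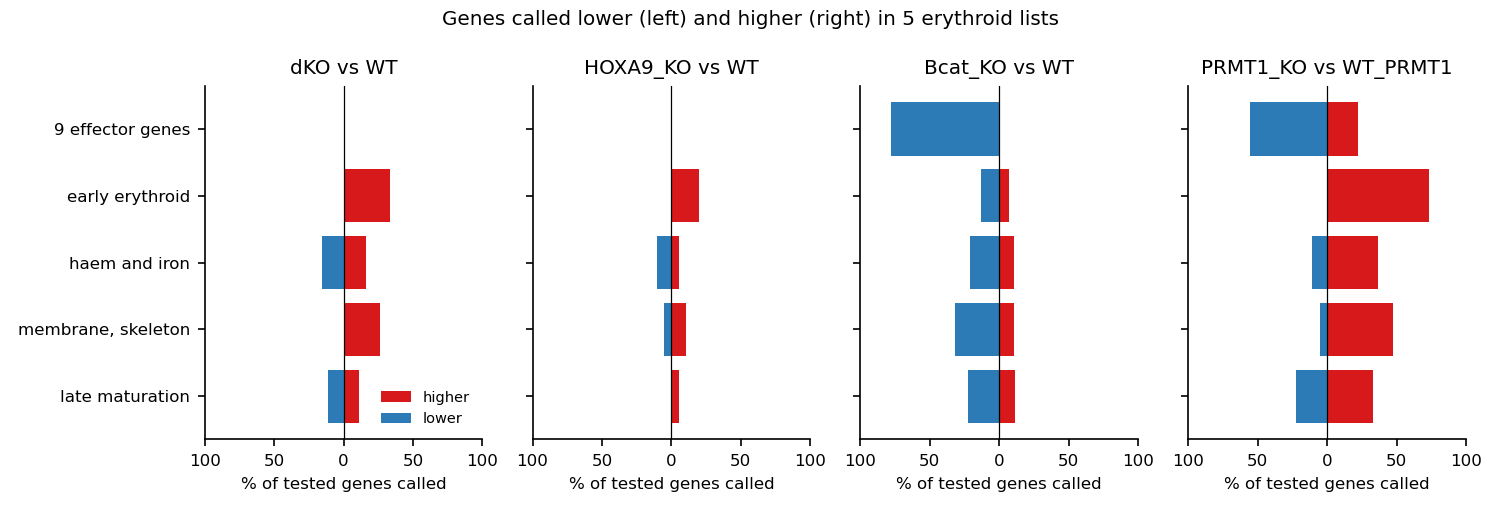
Share of tested genes called higher (right, red) and lower (left, blue) in each knockout-to-wild-type comparison, for the 9 effector genes and 4 other erythroid lists, in percent. In PRMT1_KO the early erythroid list has 11 of 15 called higher and the effector genes 5 of 9 lower. Of all genes 16.6% were higher and 16% lower there. In Bcat_KO 7 of 9 effector genes are called lower, beside 9.76% of all genes.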

How the data were processed

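RNA-seq gene counts of 12 libraries were used as the authors deposited them. Per the submitters' processing notes, the authors trimmed reads with Trim Galore 0.6.6, aligned them to GRCm38/mm10 with STAR 2.7.6a and counted them with featureCounts. Per the labels' protocols, total RNA went into a directional library kit. The sources used here do not give the strand setting, the annotation release or the treatment of reads shared between copies. Of nonzero values 67.1 to 75.9% were even, so both mates of a pair appear to be counted. Columns carry S tags and those named control were read as WT. Of 55471 genes, 54900 had coordinates identical to GENCODE M21.

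The analysis used edgeR 4.0.16 in R 4.3.3: filterByExpr (minimum count 10, 17063 genes left), TMM scaling, and a robust quasi-likelihood fit with a mean per group over all 12 libraries (6 residual degrees of freedom). The 8 comparisons were adjusted over all genes by Benjamini-Hochberg. The SE of a log2 change was its size over the square root of F. RPKM is CPM per kilobase of summed exon length. A prior count of 2 was used for log CPM in the likeness measure. A group at 0 counts was set to 3 counts over the group for a bound on fold. As both mates of a pair appear to be counted, these bounds may be too high.

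The members and lists were chosen with earlier results of these data known. The 9 members and the targeted genes are always named, and from each erythroid list up to 3 called genes with the smallest p per comparison of a knockout with its wild type, of which not all are printed. For likeness the 5 nearest genes to summed globin, Slc4a1 and Car2 are named, and the same for Car1 was added after its values were seen. Alternatives were RLE scaling, scaling by library size, totals that leave out haemoglobin and mitochondrial genes, other filters, DESeq2 1.42.0, limma-voom (limma 3.58.1), only the groups compared, each library left out, and edgeR without robust shrinkage. Figures were drawn with matplotlib 3.10.9 in Python 3.11.15.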

Additional observations from a re-analysis of the deposited data

Results flagged for a closer look

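For 7 of the 9 members the dKO value departed from the sum of the changes in HOXA9_KO and Bcat_KO (dKO minus HOXA9_KO minus Bcat_KO plus WT, edgeR's quasi-likelihood test, log2 ± SE), in a test that called 8.43% of all genes and 4.54% as higher. The departures were 11.01 ± 1.29 for Trim10 (adjusted p = 0.000111), 4.56 ± 0.63 for Ermap (0.000390) and 0.77 ± 0.11 for Car2 (0.000354). They were 10.27 ± 1.95 for Slc4a1 (0.0303), 7.10 ± 1.34 for Hbb-bs (0.0292), 7.35 ± 1.63 for Hba-a2 (0.0471) and 6.54 ± 1.45 for Hba-a1 (0.0466). The size for Trim10 and Slc4a1 depends on 0 to 4 counts in Bcat_KO. With Trim10 at 3 counts over the group its departure was at least 8.04. Calls for Ermap and Car2 held in all 17 alternatives, and that for Trim10 in 15 of 16. Those of the 3 globins and Slc4a1 were lost without any 1 of several libraries, with adjusted p up to 0.146. Hbb-bt (2.93 ± 1.04, 0.154) and Car1 (3.48 ± 1.62, 0.257) were not called.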

How the results depend on the processing

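No paired analysis was possible because the value columns carry S tags and no replicate numbers. The number of members called was 0 in HOXA9_KO against WT, and 1 with RLE scaling, 1 without a filter, 1 with a mean of 5 CPM, 2 with DESeq2 and 3 with only the groups compared. With limma-voom it was 3 in Bcat_KO against WT, 3 in dKO against Bcat_KO and 2 for departure from additivity, and with only the groups compared 4, 4 and 3. With only the groups compared it was 9 in PRMT1_KO against WT_PRMT1 and 3 in WT_PRMT1 against WT. Without a filter it was 4 in PRMT1_KO against WT_PRMT1. Without robust shrinkage it was 1 in WT_PRMT1 against WT. The shares of all genes called under the alternatives of this paragraph are not given here. The counts therefore show only how the members' own calls moved. Leaving out 1 library gave 0 to 1 for HOXA9_KO against WT, 3 to 7 for Bcat_KO against WT, 0 to 1 for dKO against WT, 2 to 4 for PRMT1_KO against WT_PRMT1, 0 to 1 for dKO against HOXA9_KO, 3 to 8 for dKO against Bcat_KO, 3 to 6 for departure from additivity, and 1 for WT_PRMT1 against WT.

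Values that turned sign were uncalled in the fit of all libraries. Of the fits they turned in, those for Car1 without dKO S6 were called: -2.71 in dKO against WT (adjusted p = 3.09e-06), -1.49 in dKO against HOXA9_KO (0.00935) and -1.16 in dKO against Bcat_KO (0.0108). With limma-voom Hba-a1 was at -0.23 in dKO against HOXA9_KO and Car1 at -0.5595 in dKO against WT, and in WT_PRMT1 against WT Hba-a1 was at 0.33, Hba-a2 at 0.0626, Hbb-bs at 0.0253 and Trim10 at 0.0297. Leaving out 1 library gave, in dKO against HOXA9_KO, -1.38 to 0.73 for Hba-a1, -1.06 to 0.99 for Hba-a2, -1.01 to 0.88 for Hbb-bs, -0.43 to 1.10 for Hbb-bt, -0.66 to 1.86 for Slc4a1 and -1.49 to 2.87 for Car1. In WT_PRMT1 against WT it gave -0.70 to 1.30 for Hba-a1, -1.28 to 1.32 for Hba-a2, -1.03 to 1.04 for Hbb-bs, -0.98 to 0.86 for Hbb-bt, -1.28 to 1.00 for Slc4a1 and -0.39 to 0.39 for Trim10. In dKO against WT it gave -2.73 to 0.60 for Slc4a1, -1.06 to 0.19 for Ermap, -1.47 to 0.23 for Trim10 and -2.71 to 1.63 for Car1. In dKO against Bcat_KO it gave -0.12 to 1.42 for Hbb-bt and -1.16 to 3.18 for Car1, and for Car2 in HOXA9_KO against WT -0.12 to 0.0363. Beyond fewer libraries in those fits, the cause was not tested. The Bcat_KO libraries, with 0 to 4 counts of Slc4a1 and Trim10, were the deepest, with 29943990 and 40553891 counts in all.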
